A study of Mus musculus with 5 samples.

Results

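Stromal matrix genes encode the collagens, proteoglycans and glycoproteins of connective tissue and the surface and contractile proteins of the fibroblasts, pericytes and smooth muscle cells that make it. A list of 38 such genes was followed across all 5 arrays of a study of sorted CD4+ T cells. The genes were taken by what they are known to encode, with earlier results of these data known, and each gene was represented by the probe set of that single symbol with the highest mean signal. Of the 38 genes, 37 were measured, out of 18193 genes on the array, and Fbn1 was not analysed here.

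CXCR6+ and CXCR6- CD3+CD4+ T cells (CXCR6 Hi and CXCR6 Lo in the labels, n = 2 arrays each) were sorted from colonic lamina propria (LP) in the CD45RBhigh transfer model. In that model Rag1-/- mice, which have no T or B cells of their own but an intact stroma, were given CD45RBhigh CD4+ T cells from BALB/c spleen. The arrayed LP cells are described as taken 6 weeks after transfer, while the general methods of the model give a later time. A single array held CD3+CD4+CD45RBhigh naive T cells. Its methods and source name place these cells in the spleen, and its description names the LP of healthy mice. All samples are labelled with a BALB/c background, and mice were used at 8 to 12 weeks of age. The labels call the LP arrays biological replicates, but the number of mice behind each array is not given in the sources used here. P-values therefore cover the spread between these arrays alone, and what part of it lies between mice is not known. LP tissue was stripped of epithelium with EDTA and digested with collagenase and dispase, and spleen was disrupted mechanically, so tissue, preparation and T cell state cannot be told apart in LP against naive.

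Fibroblasts of the intestinal LP lay down a matrix in which fibrillar collagens bear tension, small proteoglycans such as decorin coat and space the fibrils, and glycoproteins such as tenascin-C and periostin are added during inflammation and repair. Resting T cells are not known as a source of these proteins. A few members are nevertheless T cell genes in mice, since Thy1 marks all mouse T cells and Pdpn, a mucin-type glycoprotein of fibroblastic reticular cells, is also made by Th17 cells.

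The sorted cells carried T cell transcripts on every array. Of 12 T cell markers 10 were measured, and the lowest of their signals was 22.9 (Cd4 on CXCR6- replicate 2), on a scale where the median probe set of each array is 1. Against the naive array 2 of the 10 rose (Cd28 and Ptprc), 2 fell (Cd3d and Cd3e) and 6 did not pass. Of these, Ptprc is expressed by leukocytes in general. Over all genes 15.1% rose and 18.8% fell in LP against naive. The arrays also differed in ways that run with LP against naive. Signals of Dap, a poly-A RNA added as a control, were 64.6 to 102 for LP cells and 0.194 for naive cells, and the ratio of 3′ to 5′ Gapdh signal was 2.81 to 6.96 against 1.51. Xist, expressed from the inactive X, had signals of 181 to 215 against 0.864, and the Y-linked Eif2s3y 1.59 to 3.41 against 53.5. The part of these differences in any result below was not tested. In these bulk samples, fewer cells of a type and less RNA per cell cannot be told apart.

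Promoters of 3 members show the start regions of genes that are followed below, a collagen and a surface protein that rose in LP T cells and a secreted protein that fell. Each sequence runs 5′ to 3′ from 250 bases before to 50 bases after the RefSeq start (build GRCm38.p6), with capitals marking any of 4 short motifs, on either strand, that are spelled out after the sequences. Col3a1 lies at chr1:45311288-45311587 on the plus strand, Pdpn at chr4:143299515-143299814 on the minus strand and Igfbp4 at chr11:99040994-99041293 on the plus strand.
Col3a1: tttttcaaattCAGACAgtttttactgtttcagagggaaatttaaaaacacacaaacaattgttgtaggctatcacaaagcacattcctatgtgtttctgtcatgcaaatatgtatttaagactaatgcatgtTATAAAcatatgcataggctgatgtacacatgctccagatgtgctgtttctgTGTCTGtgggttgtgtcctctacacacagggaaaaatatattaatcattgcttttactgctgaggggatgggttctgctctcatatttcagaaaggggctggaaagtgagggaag
Pdpn: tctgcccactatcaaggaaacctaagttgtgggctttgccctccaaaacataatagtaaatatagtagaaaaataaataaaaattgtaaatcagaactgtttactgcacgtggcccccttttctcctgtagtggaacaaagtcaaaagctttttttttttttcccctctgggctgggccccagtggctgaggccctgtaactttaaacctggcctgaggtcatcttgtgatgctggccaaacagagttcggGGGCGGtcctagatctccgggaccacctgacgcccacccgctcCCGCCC
Igfbp4: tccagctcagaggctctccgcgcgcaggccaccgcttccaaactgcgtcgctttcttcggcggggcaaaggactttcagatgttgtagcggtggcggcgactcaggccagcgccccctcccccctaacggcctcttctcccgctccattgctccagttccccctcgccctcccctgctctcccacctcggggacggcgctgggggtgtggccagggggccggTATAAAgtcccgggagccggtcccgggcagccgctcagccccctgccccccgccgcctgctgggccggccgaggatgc
Of the measured members, 25 had a promoter in the RefSeq table. A gene was counted where any of its promoters held the motif, and shares are of all genes with a promoter in the table. TATAAA, the core of the TATA box, stood in 6 of the 25 (Col3a1, Igfbp4, Mmp3, Ogn, Postn and Tnc) and in 15.7% of all genes. GGGCGG, the GC box, stood in 13 of 25 and in 38.2% of all genes. CAGACA, an element that SMAD proteins bind, stood in 8 of 25 and in 23.6%, and TGACTCA, the AP-1 site, in 2 (Col6a1 and Mmp3) and in 5.95%. These motifs do not overlap in the sequences shown. Igfbp4, which fell, and Col3a1, which rose, both held TATAAA, and the Pdpn window held only GGGCGG.

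Most stromal matrix genes were higher in LP T cells than on the naive array. Of the 37, 23 rose, 2 fell (Igfbp4 and Sparc) and 12 did not pass (limma, Benjamini-Hochberg over all genes). Across all genes 15.1% rose and 18.8% fell in this comparison. The median log2 difference of the members was 2.70, against -0.14 over all genes. All 4 LP arrays lay above the naive array for 29 members and for 35% of all genes, and below it for 5 members and for 40.9%. Each of the 23 had a higher signal on all 4 LP arrays than on the naive array, by a log2 difference of 1.01 (Fn1) to 9.33 (Tnc). A naive signal under 1, below the array median, belonged to 17 of the 23, and for these dim values the size of the fold depends on the log scale. With the signal plus 1 the difference of Tnc was 3.70, and with signals under 1 set to 1, 8 of the members rose. Without either CXCR6- array 0 of the 18193 genes passed by limma, and 23 and 22 members were higher at an unadjusted p under 0.05 (without replicate 1 and replicate 2). Without CXCR6+ replicate 1 or replicate 2, 12 and 13 members rose. Igfbp4 and Sparc did not pass without any 1 of the 4 LP arrays. With quantile normalization 2806 of all genes rose and 2171 fell, against 2756 and 3414, and the median of all genes was -0.0013. There 21 members rose and 1 fell. The lone naive array was taken to be as variable as the LP arrays.

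**Figure D1:**
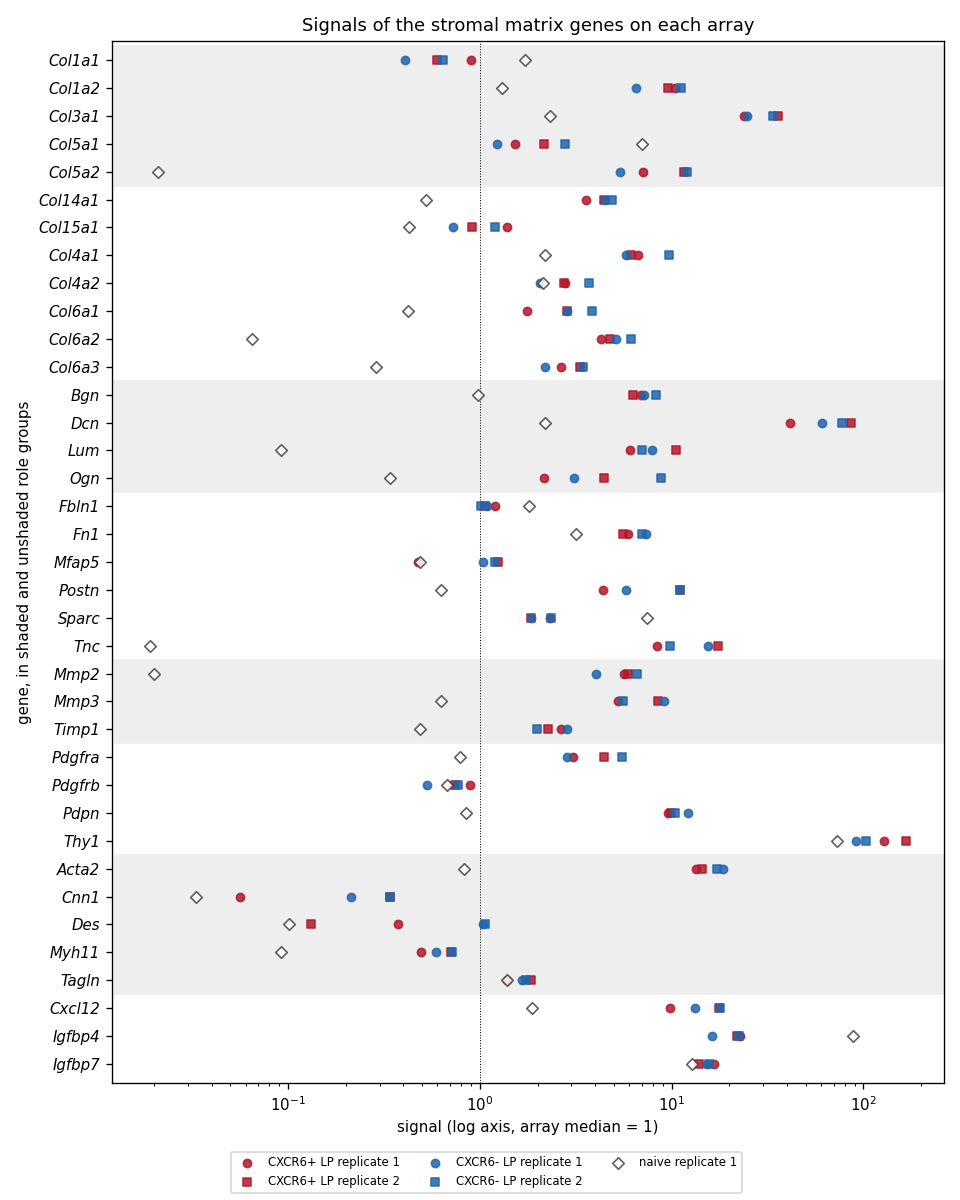
Signal of each of the 37 measured stromal matrix genes across the 5 arrays, on a log axis with the array median of 1 as a dotted line. Circles are replicate 1 and squares replicate 2 of CXCR6+ LP (red) and CXCR6- LP (blue), and open diamonds the naive array; shading separates role groups. For 29 genes all 4 LP arrays lie above the naive diamond and for 5 all lie below it.

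Fibrillar collagens, which form the tension-bearing fibres, did not move as a block. Of 5 measured, 3 rose, 0 fell and 2 did not pass. Col3a1, the single chain of type III collagen, had signals of 24 and 36.1 in CXCR6+ cells, 24.8 and 33.8 in CXCR6- cells and 2.32 in naive cells. All LP arrays stood clear of the naive array, a log2 difference of 3.66 (SE 0.38, adjusted p = 0.0145). Col1a2, a chain of type I collagen, had signals of 10.4 and 9.58 in CXCR6+ cells, 6.55 and 11.2 in CXCR6- cells and 1.30 in naive cells, a log2 difference of 2.83 (SE 0.40, adjusted p = 0.0197).

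The partner chain of type I collagen went the other way. Col1a1 had signals of 0.898 and 0.597 in CXCR6+ cells, 0.409 and 0.643 in CXCR6- cells and 1.72 in naive cells, so that all LP values lay below the naive one and below the array median. Its log2 difference was -1.49 (SE 0.43, adjusted p = 0.0722), which did not pass. The second Col1a1 probe set was dimmer and also lower in LP, at 0.050 to 0.124 against 0.805.

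Type V collagen, which starts and sizes fibrils, showed the same split between its chains. Col5a2 had signals of 7.13 and 11.6 in CXCR6+ cells, 5.42 and 12.03 in CXCR6- cells and 0.021 in naive cells, higher in LP by 8.67 on the log2 scale (SE 0.60, adjusted p = 0.0119) and by 3.24 with the signal plus 1. Its second probe set had signals of 0.915 to 3.05 against 0.036. Col5a1 had signals of 1.53 and 2.16, 1.23 and 2.77, and 6.98 on the naive array, a log2 difference of -1.93 (SE 0.57, adjusted p = 0.0758). The other 2 Col5a1 probe sets were also lower on all LP arrays than on the naive array.

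Of 7 network-forming and associated collagens, 5 rose and 2 did not pass. All 3 measured chains of type VI collagen, the beaded filament of the pericellular matrix, rose. Col6a2 had signals of 4.26 and 4.76 in CXCR6+ cells, 5.14 and 6.11 in CXCR6- cells and 0.065 in naive cells, a log2 difference of 6.27 (SE 0.26, adjusted p = 0.0119). Col6a1 had LP signals of 1.76 to 3.86 against 0.420 (log2 difference 2.70, adjusted p = 0.022) and Col6a3 2.20 to 3.44 against 0.286 (3.32, adjusted p = 0.0155).

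Col14a1, a fibril-associated collagen, rose by a log2 of 3.05 (SE 0.27, adjusted p = 0.0126), from 0.523 to 3.58 to 4.88. The basement membrane collagen chain Col4a1 rose by 1.67 (SE 0.39, adjusted p = 0.047), with LP signals of 5.80 to 9.73 against 2.19. Its partner Col4a2 had LP signals of 2.06 to 3.71 against 2.14, which overlap the naive value, and a log2 difference of 0.37 (adjusted p = 0.537). Col15a1, of the vascular basement membrane zone, was at 0.722 to 1.38 against 0.425 (log2 difference 1.27, adjusted p = 0.112).

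All 4 small leucine-rich proteoglycans rose. Dcn, decorin, which binds collagen fibrils and TGF-β, had signals of 41.5 and 86.4 in CXCR6+ cells, 60.7 and 77.1 in CXCR6- cells and 2.19 in naive cells. The LP arrays were far above the naive array, a log2 difference of 4.87 (SE 0.51, adjusted p = 0.0146), and each replicate 2 array was above both replicate 1 arrays. The second Dcn probe set was dim, at 0.363 and 0.558, 0.523 and 0.950, and 0.338 on the naive array, so that CXCR6+ replicate 1 hardly differed from naive by this probe set.

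Lum, lumican, which regulates fibril thickness, had signals of 6.10 and 10.5 in CXCR6+ cells, 7.88 and 6.99 in CXCR6- cells and 0.092 in naive cells (log2 difference 6.39, SE 0.41, adjusted p = 0.0119, and 2.998 with the signal plus 1). Bgn, biglycan, was at 6.29 to 8.29 against 0.976 (log2 difference 2.87, SE 0.26, adjusted p = 0.0126), and both of its other probe sets were higher on all LP arrays. Ogn, osteoglycin, was the most spread of these on the LP arrays, at 2.17 and 4.44 in CXCR6+ cells and 3.11 and 8.79 in CXCR6- cells, against 0.339 (log2 difference 3.57, SE 0.79, adjusted p = 0.0422).

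Among 6 measured matrix glycoproteins, 3 rose, 1 fell and 2 did not pass. Tnc, tenascin-C, an anti-adhesive protein of inflamed and healing tissue, had signals of 8.37 and 17.5 in CXCR6+ cells, 15.5 and 9.77 in CXCR6- cells and 0.019 in naive cells (log2 difference 9.33, SE 0.57, adjusted p = 0.0119). The second Tnc probe set gave 0.783 and 1.33, 1.28 and 1.16, and 0.370. Both probe sets were higher on all LP arrays, and the second differed far less. Postn, periostin, a collagen-binding matricellular protein, was at 4.38 and 11.02 in CXCR6+ cells, 5.78 and 11.03 in CXCR6- cells and 0.624 in naive cells (log2 difference 3.58, SE 0.71, adjusted p = 0.0343).

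Fn1, fibronectin, the adhesive glycoprotein that integrins assemble into fibres, was at 5.90 and 5.57 in CXCR6+ cells, 7.34 and 6.99 in CXCR6- cells and 3.19 in naive cells (log2 difference 1.01, SE 0.24, adjusted p = 0.0482). Sparc, osteonectin, a collagen-binding protein, fell by 1.84 on the log2 scale (SE 0.31, adjusted p = 0.0253), from 7.46 to 1.85 to 2.365. Its probe sets disagreed. A second had LP signals of 1.08 to 5.23 around the naive 2.10, and the dimmest was higher on all LP arrays, at 0.390 to 0.926 against 0.094, so the mean of the probe sets gave a log2 difference of 0.39. Fbln1, fibulin-1, was at 1.01 to 1.21 against 1.81 (adjusted p = 0.0994). Both of its other probe sets were instead higher on all LP arrays, at 1.025 to 1.504 against 0.742 and at 0.522 to 0.755 against 0.394. Mfap5, a microfibril protein, was at 0.475 to 1.25 against 0.485 (adjusted p = 0.312). A second Mfap5 probe set of about the same brightness was higher on all LP arrays, at 0.789 to 1.40 against 0.021.

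All 3 genes of matrix turnover rose. Mmp2, gelatinase A, had signals of 5.65 and 5.92 in CXCR6+ cells, 4.04 and 6.61 in CXCR6- cells and 0.020 in naive cells (log2 difference 8.10, SE 0.38, adjusted p = 0.0119, and 2.67 with the signal plus 1). Its second probe set gave 2.72 to 4.18 against 0.171. Mmp3, stromelysin, a product of cytokine-activated fibroblasts, was at 5.25 and 8.52, 9.11 and 5.60, and 0.624 (log2 difference 3.47, SE 0.47, adjusted p = 0.0187). Timp1, the secreted inhibitor of these proteases, was at 1.99 to 2.84 against 0.486 (log2 difference 2.31, SE 0.33, adjusted p = 0.0201).

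**Figure D2:**
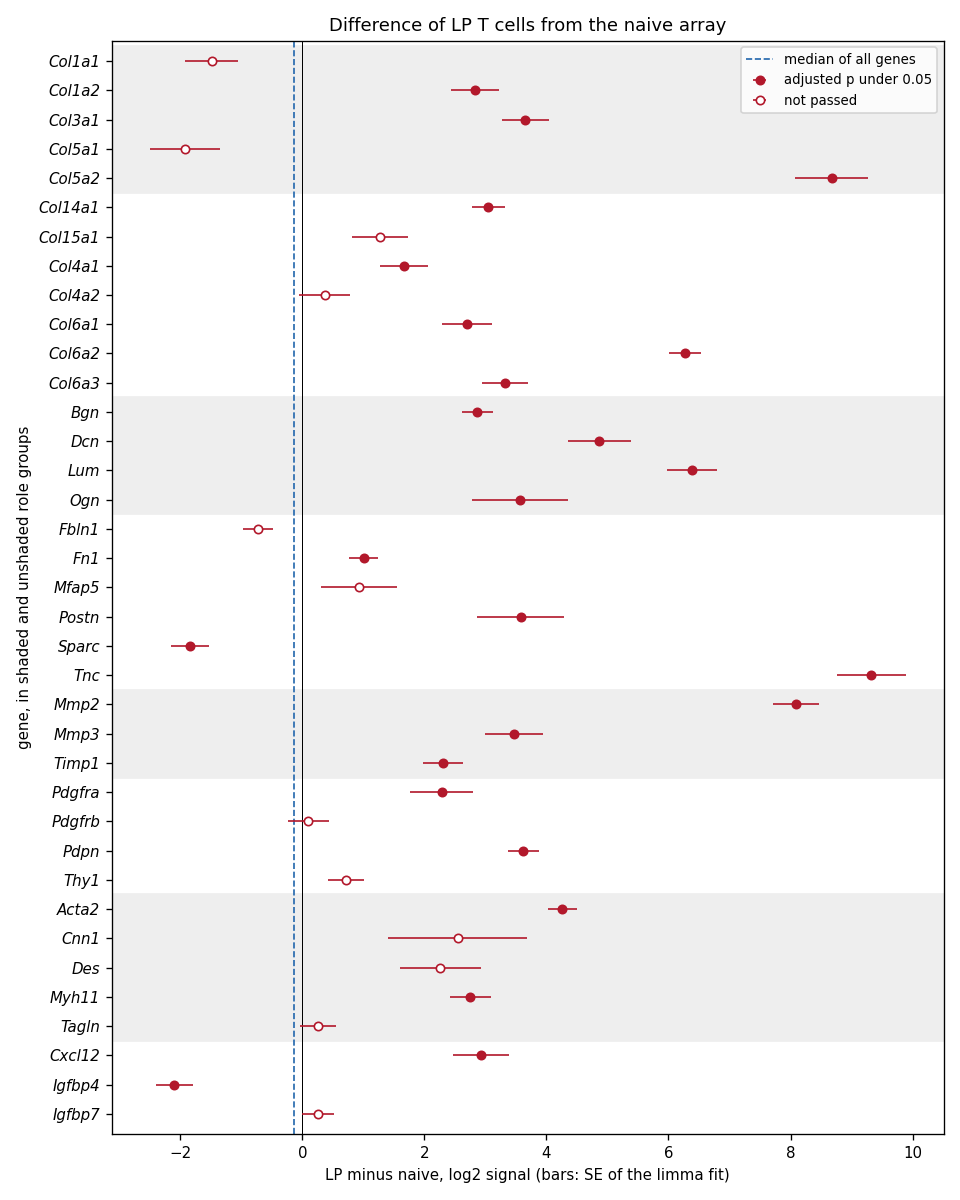
Log2 signal of LP T cells (mean of the CXCR6+ and CXCR6- group means) minus that of the naive array for each stromal matrix gene. Filled points passed at an adjusted p under 0.05, bars are the SE of the limma fit and the dashed line is the median of all genes (-0.14); differences of over 8 belong to Col5a2, Mmp2 and Tnc, whose naive signals were 0.021, 0.020 and 0.019.

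Of the 4 mesenchymal surface proteins 2 rose. Pdpn was at 9.60 and 9.95 in CXCR6+ cells, 12.1 and 10.4 in CXCR6- cells and 0.852 in naive cells, a log2 difference of 3.62 (SE 0.25, adjusted p = 0.0119), with little spread among the LP arrays. Pdgfra, a receptor for PDGF on LP fibroblasts, was at 3.05 and 4.45, 2.85 and 5.53, and 0.787 (log2 difference 2.28, SE 0.51, adjusted p = 0.0435). Pdgfrb, the receptor of pericytes, was below the array median on all 5 arrays, at 0.530 to 0.887 in LP cells and 0.673 in naive cells. Thy1 was at 128 and 167 in CXCR6+ cells, 91.1 and 104 in CXCR6- cells and 72.5 in naive cells, which did not pass (log2 difference 0.72, SE 0.29, adjusted p = 0.139).

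Of 5 contractile genes, 2 rose and 3 did not pass. Acta2, smooth muscle α-actin, the marker of myofibroblasts, was at 13.4 and 14.4 in CXCR6+ cells, 18.6 and 17.3 in CXCR6- cells and 0.825 in naive cells, a log2 difference of 4.26 (SE 0.24, adjusted p = 0.0119). Its probe set is of the _s_at type, which can detect transcripts of several related genes, and the other 2 Acta2 probe sets stayed under 0.4 on all 5 arrays. Without probe sets of the _s_at and _x_at types the difference of Acta2 was -1.25. Genes of mature smooth muscle were dim. Myh11, its myosin heavy chain, rose from 0.092 to 0.492 to 0.714 (adjusted p = 0.0165), which with signals under 1 set to 1 leaves no difference, Cnn1, calponin, was at 0.056 to 0.342 against 0.033 (adjusted p = 0.166) and Tagln, an actin-binding protein, at 1.39 to 1.84 against 1.38 (adjusted p = 0.533). Des, desmin, was at 0.375 and 0.132 in CXCR6+ cells, 1.04 and 1.07 in CXCR6- cells and 0.101 in naive cells (adjusted p = 0.0741).

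The 3 secreted signalling proteins went 3 ways. Cxcl12, the chemokine of CXCR4, was at 9.76 and 17.8 in CXCR6+ cells, 13.2 and 17.9 in CXCR6- cells and 1.87 in naive cells (log2 difference 2.93, SE 0.46, adjusted p = 0.0233). The other 2 Cxcl12 probe sets were dim and overlapped the naive value, at 0.168 to 1.42 against 0.363 and at 0.218 to 0.875 against 0.373. Igfbp4, which binds insulin-like growth factors, fell from 88.6 to 22.8 and 21.9 in CXCR6+ cells and 16.2 and 22.6 in CXCR6- cells, a log2 difference of -2.10 (SE 0.31, adjusted p = 0.0207). All 6 Igfbp4 probe sets were lower on every LP array than on the naive array. Igfbp7, a related secreted protein of vessels and fibroblasts, was at 13.8 to 16.7 against 12.9, which did not pass (log2 difference 0.26, adjusted p = 0.488).

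**Figure D3:**
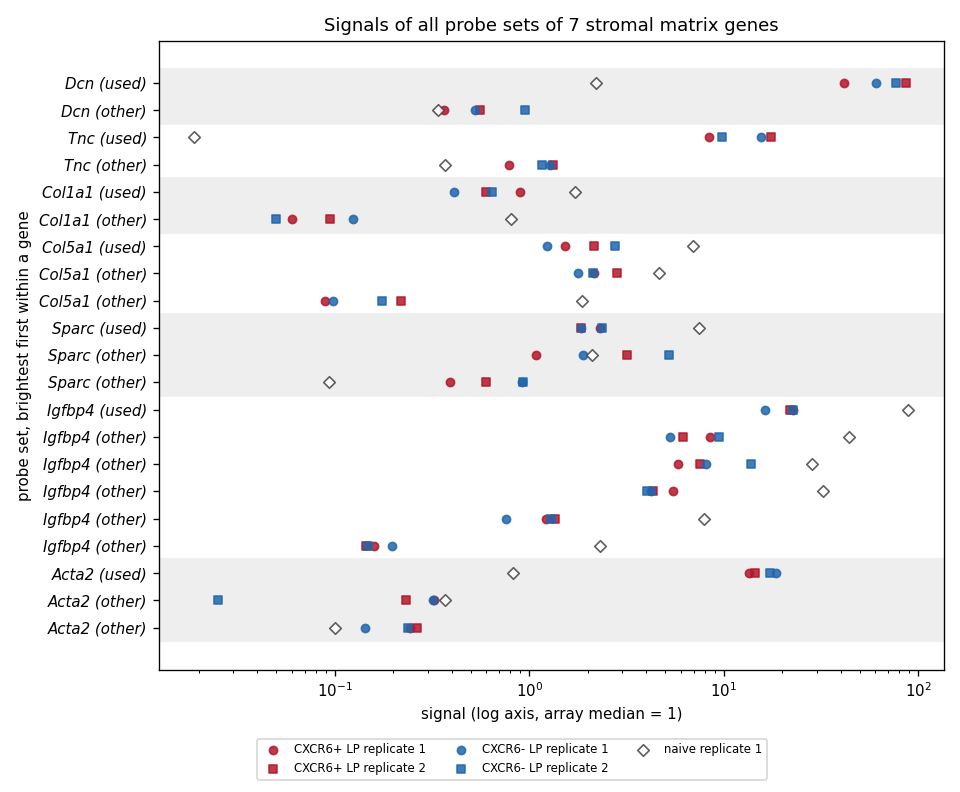
Signals of all 21 probe sets of 7 stromal matrix genes on the 5 arrays (log axis, array median 1; symbols mark CXCR6+ LP, CXCR6- LP and naive arrays as in the key), with the probe set used for the gene named. Igfbp4 and Col5a1 lie below the naive diamond by every probe set, while the Sparc and Acta2 probe sets do not go one way.

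Further probe sets bear on how far a member rests on the one used. Of the 37 members, 25 had more than 1 probe set, with 39 others in all, and 30 of these differed in the same direction between LP and naive as the one used. Among the 16 others with a mean signal of at least 1, 14 did. For the 23 members that rose, 20 of 22 other probe sets had a higher LP mean and 18 were higher on all 4 LP arrays. With the mean of each gene's probe sets in place of the brightest, Cxcl12 (log2 difference 1.18, adjusted p = 0.181), Acta2 (1.38, 0.114), Col14a1 (1.58, 0.0504), Fn1 (1.53, 0.0565) and Ogn (2.88, 0.0526) no longer passed. Mfap5 (3.28, adjusted p = 0.0257) and Des (2.205, 0.0464) then rose, Col1a1 (-2.44, 0.0224) and Col5a1 (-2.26, 0.0474) fell, and Sparc no longer passed. Dcn and Tnc still rose, by 2.80 and 5.46. Col3a1, Col6a2, Dcn and Pdpn rose in 11 of 14 alternative limma fits, and no member passed in the other three.

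Between the sorted subsets, stromal matrix genes did not pass. By limma 0 of 37 differed between CXCR6+ and CXCR6- cells, as did 0 of all genes, and at an unadjusted p under 0.05 there was 1 member (6.55% of all genes). This was Des, with a log2 difference of -2.24 between CXCR6+ and CXCR6- cells at the dim signals given above. The test named by the study's methods gave 2 members at an unadjusted p under 0.05, both lower in CXCR6+ cells (846 of all genes were higher and 437 lower), and 0 after Benjamini-Hochberg. The median log2 difference of the members was -0.08, against 0.08 over all genes.

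Both CXCR6+ arrays lay below both CXCR6- arrays for 8 of 37 members (Acta2, Bgn, Col14a1, Col6a1, Col6a2, Des, Fn1 and Pdpn) and for 14.3% of all genes. The reverse held for 1 member, Thy1, and for 25.1% of all genes. Col14a1 was at 3.58 and 4.43 in CXCR6+ cells against 4.49 and 4.88 in CXCR6- cells, a log2 difference of -0.23 where its rise over naive was 3.05, while for Des the gap was about as large as the difference of 2.26 from naive. T cell markers were mostly arranged the other way, with both CXCR6+ arrays above both CXCR6- arrays for 6 of 10 measured. Among them was Cd4 at 39.2 and 39.1 against 27.0 and 22.9. For 1 marker, Zap70, both CXCR6+ arrays lay below, at 24.6 and 25.3 against 30.6 and 30.2. The part of T cell markers in the lower matrix signals was not tested.

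No member passed between the replicate 2 and the replicate 1 arrays, though several fibroblast products had higher signals on both replicate 2 arrays. The labels call the LP arrays biological replicates 1 and 2 in each subset without saying whether a number links the subsets. Both replicate 2 arrays lay above both replicate 1 arrays for 14 of 37 members and for 21.3% of all genes, and below them for 2 members (Fbln1 and Timp1) and for 11.4%. Each replicate 2 array lay above the replicate 1 array of its own subset for 18 members and for 32.5% of all genes. The median log2 difference between replicate 2 and replicate 1 was 0.28 over the members and 0.08 over all genes. By limma, with the subset as a term, 0 members and 0 of all genes passed, and 2 members had an unadjusted p under 0.05, both higher in replicate 2 (3.92% of all genes). The test named by the methods gave 4 members at an unadjusted p under 0.05, all higher in replicate 2 (627 of all genes were higher and 336 lower), and 0 after adjustment.

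Ogn and Postn were the 2. Ogn was 2.05-fold higher on replicate 2 in CXCR6+ cells and 2.83-fold in CXCR6- cells, a log2 difference of 1.27 (SE 0.29, adjusted p = 0.731), and Postn 2.51-fold and 1.91-fold, a difference of 1.13 (SE 0.28, adjusted p = 0.76). They passed with the filter on dim genes (adjusted p = 0.013 and 0.024) and with a variance trend and robust fitting (0.023 and 0.0125). Col5a2 was higher by 1.63-fold and 2.22-fold, Pdgfra by 1.46-fold and 1.94-fold, Dcn by 2.08-fold and 1.27-fold, Cxcl12 by 1.82-fold and 1.35-fold and Col3a1 by 1.503-fold and 1.365-fold. These are ligands, receptors and fibre proteins of fibroblasts, and none of them passed.

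Other members did not follow the replicate number. Tnc was 2.09-fold higher on replicate 2 in CXCR6+ cells and 0.631-fold in CXCR6- cells, and Mmp3 1.62-fold and 0.614-fold, so for both the higher signals were on CXCR6+ replicate 2 and CXCR6- replicate 1. Acta2, Bgn, Pdpn and Fn1 differed by less than 1.2-fold between replicates in each subset. Over all members, the highest LP signal was 1.19 to 8.08 times the lowest, with a median of 1.71.

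**Figure D4:**
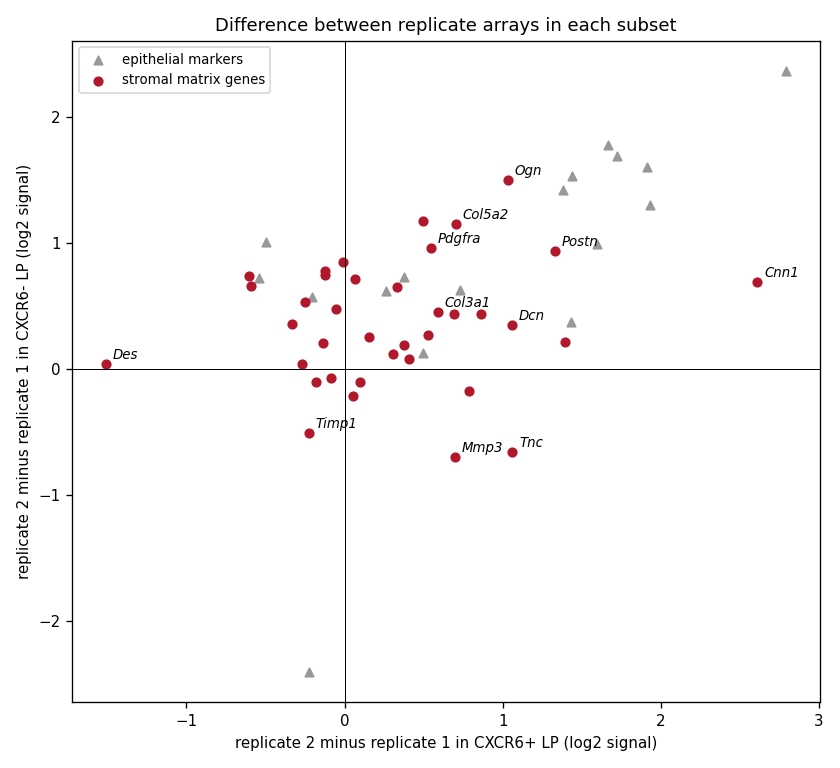
Log2 signal on replicate 2 minus that on replicate 1 within CXCR6+ LP (horizontal) and within CXCR6- LP (vertical) for the 37 stromal matrix genes (red circles) and 17 epithelial markers (grey triangles). Ogn and Postn lie up and to the right among the matrix genes, Tnc and Mmp3 lie in the lower right, and 11 of the epithelial markers were above both replicate 1 arrays on both replicate 2 arrays.

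Most epithelial markers also had higher signals on the replicate 2 arrays, in a comparison in which no gene of the array passed. Of 17 measured, 11 were above both replicate 1 arrays on both replicate 2 arrays and 1 was below them, against 21.3% and 11.4% of all genes. Against the naive array 5 of the 17 rose in LP cells (Agr2, Elf3, Krt18, Krt8 and Tff3), 1 fell (Car1) and 11 did not pass. Over all genes 15.1% rose and 18.8% fell. Krt8, a keratin of simple epithelia, was at 9.36 and 25.4 in CXCR6+ cells, 10.3 and 29.6 in CXCR6- cells and 0.387 in naive cells. The summed signal of the list was 56.3 and 57.0 on the replicate 1 arrays, 104 and 126 on the replicate 2 arrays and 109 on the naive array, where Car1, a carbonic anhydrase also found in red cells, gave 85.2. Of 16 myeloid markers measured, 11 were above both replicate 1 arrays on both replicate 2 arrays, with sums of 322 and 402 on replicate 1 and 434 and 429 on replicate 2. Against the naive array 3 of the 16 rose (Cd14, Csf1r and Lyz2), 2 fell (S100a8 and S100a9) and 11 did not pass, beside the same shares of all genes. The median log2 difference of the 16 was -0.06. All LP arrays lay above the naive array for 6 of them and below it for 7. Cd14, the endotoxin co-receptor of monocytes and macrophages, was at 58.5 to 93.0 in LP cells against 1.95 (log2 difference 5.27, adjusted p = 0.0119). S100a9 was at 3.12 to 5.795 against 114 (log2 difference -4.72, adjusted p = 0.0119). The part of these other cells' markers in LP against naive was not tested either. T cell markers showed 0 of 10 above both replicate 1 arrays and 1 (Cd5) below. Array controls differed by replicate number as well. The ratio of 3′ to 5′ Gapdh signal was 3.98 on replicate 2 against 2.81 on replicate 1 in CXCR6+ cells, and 6.96 against 4.19 in CXCR6- cells. Dap signals were 80.9 against 64.6 and 102 against 65.6. The 18S 3′ control went the other way, at 78.6 against 109 and 28.9 against 56.2. The part of these markers and controls in the replicate difference of the matrix genes was not tested.

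Genes that act with the members were followed as lists drawn from what they encode. Of 16 measured collagen processing enzymes, 3 rose, 1 fell and 12 did not pass, against the 15.1% and 18.8% of all genes that rose and fell, a background that holds for each list below. Lox, which cross-links collagen and elastin, was at 1.27 to 1.77 in LP cells against 0.110 (log2 difference 3.79, adjusted p = 0.0119). Plod2, a collagen lysyl hydroxylase, was at 3.09 to 4.13 against 0.693 (2.38, adjusted p = 0.0143) and Serpinh1, the collagen chaperone HSP47, at 2.41 to 3.985 against 0.587 (2.45, adjusted p = 0.017). Crtap, a part of the prolyl 3-hydroxylase complex, fell from 5.20 to 1.93 to 2.61. The median difference of the list was 0.49, well under that of the members.

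Of 14 measured basement membrane glycoproteins, 2 rose, 2 fell (Agrn and Lama1) and 10 did not pass. Hspg2, perlecan, was at 5.73 to 7.96 against 0.288 (log2 difference 4.53, adjusted p = 0.0119) and Lamb1, a laminin chain, at 3.39 to 5.61 against 0.730 (2.49, adjusted p = 0.023). Of 12 measured receptors for collagen and matrix, 3 rose (Cd44, Itga1 and Itgb5) and 2 fell. The higher Itga1 signals were mostly those of CXCR6+ cells, at 7.65 and 6.73, against 1.29 and 1.49 in CXCR6- cells and 1.20 in naive cells. Itgb5, an integrin chain for vitronectin, was at 15.2 to 33.9 against 5.96 (2.10, adjusted p = 0.0362). Itga5 and Itgb1, which pair as the fibronectin receptor, fell by 4.46 (adjusted p = 0.0119) and by 2.00 (adjusted p = 0.0173) on the log2 scale. Itga5 was below the array median on all LP arrays, at 0.119 to 0.541 against 5.84, and Itgb1 was at 4.26 to 6.90 against 21.1. Fn1 itself rose in the main fit and did not pass in 9 of 14 alternative limma fits.

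Most fibroblast genes outside the list were also higher in LP cells. Of 24 measured, 14 rose, 1 fell (Twist1) and 9 did not pass, with a median difference of 2.07. Cxcl1, a neutrophil chemokine made by activated stroma and myeloid cells, was at 110 and 186 in CXCR6+ cells, 131 and 175 in CXCR6- cells and 0.328 in naive cells (log2 difference 8.81, adjusted p = 0.0119). Hand1, a mesenchymal transcription factor, was at 0.935 to 1.54 against 0.074 (4.09, adjusted p = 0.012). Il6, made by stroma and by T cells, was at 18.5 to 24.9 against 1.32 (4.02, adjusted p = 0.0119).

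Markers of vessel cells were split. Of 6 pericyte markers 3 rose (Rgs5, Notch3 and Abcc9), 0 fell and 3 did not pass (Cspg4, Kcnj8 and Mcam). Rgs5, a regulator of G protein signalling, was at 3.90 to 6.02 against 0.276 (log2 difference 4.19, adjusted p = 0.0121). Kcnj8 and Mcam were lower on all LP arrays than on the naive array, at 1.24 to 2.33 against 3.07 and at 0.236 to 1.375 against 2.11. The log2 difference of Cspg4 was -0.36. Of 14 endothelial markers, 2 rose (Kdr and Lyve1), 2 fell (Pecam1 and Tie1) and 10 did not pass, and the defining Cdh5 was at 0.074 to 0.873 against 0.464. Lyve1, the hyaluronan receptor of lymphatic vessels and of some macrophages, was at 2.18 to 6.48 against 0.448 (3.28, adjusted p = 0.0316), and Pecam1, the adhesion molecule CD31, at 1.23 to 2.18 against 6.83. Of 7 measured B cell markers 5 fell, 1 rose (Pax5) and 1 did not pass, with Ms4a1, which encodes CD20, at 0.006 to 0.197 in LP cells against 16.2, and Cd79b and Cd79a, chains of the B cell receptor complex, at 0.540 to 0.752 against 22.0 and at 0.229 to 0.536 against 7.94. Of 8 mast cell markers, 4 fell, 1 rose (Kit) and 3 did not pass, and of 4 glial and Cajal cell markers 1 rose (S100b), 1 fell (Ano1) and 2 did not pass.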

How the data were processed

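RNA of sorted CD4+ T cells was hybridised to 5 Affymetrix mouse expression arrays. The deposited intensity of each probe set is a linear signal that the authors scaled to an array median of 1 in GeneSpring, with RMA named in the submitters' processing notes. Beyond the name RMA, how background was corrected, or probe sets filtered, is not given in the sources used here, and for arrays it is their number that limits the precision. Of 45101 probe sets 34945 had 1 symbol, 932 several and 9160 none in the platform annotation, 34741 matched a RefSeq gene, and 64 were controls. Each of 18193 genes was read from its brightest probe set by the mean of the 5 arrays. Log2 signals (with 0.001 in place of 2 naive signals of 0) were fitted in limma 3.58.1 (R 4.3.3) with 3 groups, and p-values were adjusted by Benjamini-Hochberg over all genes, with 0.05 as the threshold. LP is the mean of the CXCR6+ and CXCR6- group means. Replicate 2 was compared with replicate 1 on the LP arrays with the subset as a term. The fit was tested on simulated data. Those data gave all 5 arrays the same spread, so they do not show how variable the naive array is. Figures were drawn with matplotlib 3.10.9.

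Members and gene lists were chosen with earlier results of these data known. The lists cover collagen processing, basement membrane and receptor genes and markers of fibroblasts, pericytes, endothelium, epithelium, T cells, B cells, myeloid cells, mast cells, glia and sex. In them the text draws names from the 3 genes of a list with the largest absolute LP difference among those with a mean signal of at least 1, and genes outside that rule, such as those behind small counts, were named after their values were seen. Alternatives were the mean of the probe sets, no _s_at or _x_at probe sets, a filter at the 40th percentile, quantile normalization, the signal plus 1, a floor of 1, a variance trend with robust fitting, a fold of at least 2, the test that the methods name, a replicate block, 1 replicate number alone and leaving out arrays. Promoters come from RefSeq. Fbn1 was not analysed here.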

Additional observations from a re-analysis of the deposited data

Results flagged for a closer look

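Control probe sets, which no comparison of genes used, differed between the LP arrays and the naive array. The added poly-A RNAs are spiked in before labelling. Their mean signals for LP cells were 78.2 for Dap (naive 0.194), 10.8 for Lys (0.194), 10.3 for Phe (0.277) and 21.2 for Thr (0.379). The ribosomal 18S control had a mean of 68.1 for LP cells against 3.30. Only controls whose lowest LP signal was over 4 times the naive signal were flagged. The BioB control went the other way, at 5.91 to 7.72 for LP cells against 21.4. The part of these differences in the higher matrix signals was not tested.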

How the results depend on the processing

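The count of 23 members higher in LP than naive cells was 17 to 24 under the other settings except 2. It was 8 with signals floored at 1, and 0 with the replicate 1 LP arrays only, and it ranged from 0 to 13 on leaving out 1 array. The count of 2 lower members was 4 with the 40th percentile filter, 4 with the signal plus 1, 4 by the methods' test unadjusted, 1 with quantile normalization, 0 with the replicate 1 arrays only, 0 with the replicate 2 arrays only and 0 on leaving out any 1 array. Members differing between CXCR6+ and CXCR6- cells numbered 2 by the methods' test unadjusted. Members differing between replicates numbered 2 with the 40th percentile filter, 2 with a variance trend with robust fitting and 4 by the methods' test unadjusted. Over all genes, 2756 rose and 3414 fell in LP cells, and with signals floored at 1 the count that rose was 1068. With the replicate 1 LP arrays only, 0 of all genes rose and 0 fell. There the median log2 difference was 2.55 over the members and -0.18 over all genes. With the replicate 2 LP arrays only 1058 rose and 805 fell, and on leaving out 1 array 0 to 999 rose and 0 to 939 fell. Replicates differed for 0 of all genes, against 169 higher and 74 lower with the filter, 94 and 51 with the trend and 12 and 5 with the signal plus 1. Among single genes the LP difference changed sign with the mean of the probe sets for Fbln1 (0.27), Igfbp7 (-0.81), Pdgfrb (-1.53) and Sparc (0.39), without _s_at and _x_at probe sets for Acta2 (-1.25), with quantile normalization for Pdgfrb (-0.20) and without CXCR6- replicate 2 for Pdgfrb (-0.036, with up to 0.23 without CXCR6- replicate 1). Except where the values above show it, the cause was not tested.

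With a replicate block 20 members were higher and 0 lower (1705 and 1807 of all genes). The main fit did not pair the LP arrays by number, since the labels do not say whether a number links the subsets. Deviations of same-numbered arrays correlated at r = 0.019 over 18193 genes and 0.144 over the 37 members. On both replicate 2 arrays, however, 11 of 17 epithelial and 11 of 16 myeloid markers were above both replicate 1 arrays, and 1 of each was below. The correlations therefore do not decide whether the numbers pair the arrays. Leaving out an array could not be run for replicate 2 against replicate 1.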
